A study of Mus musculus with 6 samples.

Results

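Messenger RNA of 60 oxidative phosphorylation genes was followed in mouse star pyramid neurons, which are excitatory cells found in cortical layer 4, here of the visual area, on exon arrays of 3 samples from deprived and 3 from non-deprived hemispheres. The genes were taken by symbol from the array's annotation: names that begin with Nduf, Uqcr or Atp5, the Sdh genes a to d, and Cox genes of the subunit series 4 to 8. They are 60 of 14859 named genes, with 33 in complex I, 4 in complex II, 5 in complex III, 10 in complex IV and 8 in complex V. Each had a single transcript cluster, the set of probes that reads a gene on this array. A further 7 clusters pair such a symbol with those of other genes and were not named, so Ndufa10, Ndufa11, Cox6c, Cox7a2l, Atp5c1, Atp5j and Atp5o are not analysed here.

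Every animal in both groups had undergone monocular deprivation with tetrodotoxin (TTX), a blocker of voltage-gated sodium channels, at postnatal day 12 to 13 and once more at day 13 to 14. Neurons that carried the fluorescent label m-Citrin were collected manually at postnatal day 14. The non-deprived group is thus the other hemisphere of treated animals, not an untreated control. The mouse line that drives the label, the number of cells per sample and the animal behind each sample are not stated in the labels, so p-values reflect the spread of these samples alone, which may be technical. In such pooled cells, fewer cells of a type and less RNA per cell cannot be told apart.

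Oxidative phosphorylation is the mitochondrial pathway that makes most of the ATP of neurons. Complex I takes electrons from NADH and complex II from succinate; ubiquinone carries them to complex III and cytochrome c to complex IV, which reduces oxygen. Complexes I, III and IV pump protons, and complex V, the ATP synthase, uses the returning protons to make ATP. Core subunits hold the cofactors or catalytic sites, accessory subunits surround and stabilise them, and assembly factors help to build a complex without staying in it. For complex V the core class used here is wider: it also takes in the stalk subunits Atp5d, Atp5e and Atp5pb. All complexes except II also hold subunits encoded in mitochondrial DNA, which were not analysed here. In the visual cortex, synaptic and action potential activity accounts for much of the ATP used, and the activity of cytochrome oxidase (complex IV) has long served as a histological map of the input from each eye.

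In mammals, many nuclear genes of the pathway are known to be controlled by NRF1, the ETS factor GABP and YY1. Their motifs were searched on both strands in the windows of RefSeq promoters (build GRCm38.p6) that run from 250 bases before to 50 bases after a gene's start, which were at hand for 49 of the 60 genes. The NRF1 motif GCGCANGCG was present for 12 of the 49 genes (24.5%), against 11.4% of 11868 named genes with a window. For the YY1 motif AAGATGGCG it was 5 of 49 (10.2%) against 2.49%, and for the ETS motif CCGGAAG 8 of 49 (16.3%) against 14.4%. No different motifs overlapped in these windows. At least 1 of the 3 motifs was found for 22 genes. A match is a description of the letters, not a bound site. The windows below belong to 4 of the genes whose values did not overlap between the groups, as described further on. Of the other genes without overlap, Ndufa1 and Ndufaf2 held none of the 3 motifs in their windows, and Uqcrq had no window. Capitals mark motif matches, with overlapping NRF1 matches joined into 1 stretch. In Cox6a1 the matches are, in order, NRF1, NRF1 and ETS on the other strand; in Sdha all 3 are NRF1; in Ndufb7 the match is ETS; in Cox7b none of these letters occur.
Cox6a1 (chr5:115348909-115349208, minus strand): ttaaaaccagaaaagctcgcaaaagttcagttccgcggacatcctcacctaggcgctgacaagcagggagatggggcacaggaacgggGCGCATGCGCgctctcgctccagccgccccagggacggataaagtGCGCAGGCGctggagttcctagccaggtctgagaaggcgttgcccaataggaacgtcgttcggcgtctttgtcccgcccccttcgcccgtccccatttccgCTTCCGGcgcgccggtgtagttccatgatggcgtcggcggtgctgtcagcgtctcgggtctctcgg
Sdha (chr13:74350191-74350490, minus strand): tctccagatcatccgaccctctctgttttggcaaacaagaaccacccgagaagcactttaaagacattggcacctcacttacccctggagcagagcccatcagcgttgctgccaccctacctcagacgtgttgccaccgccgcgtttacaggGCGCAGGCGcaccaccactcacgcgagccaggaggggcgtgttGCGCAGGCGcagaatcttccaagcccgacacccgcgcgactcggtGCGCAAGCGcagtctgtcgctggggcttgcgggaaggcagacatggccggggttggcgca
Ndufb7 (chr8:83566508-83566807, plus strand): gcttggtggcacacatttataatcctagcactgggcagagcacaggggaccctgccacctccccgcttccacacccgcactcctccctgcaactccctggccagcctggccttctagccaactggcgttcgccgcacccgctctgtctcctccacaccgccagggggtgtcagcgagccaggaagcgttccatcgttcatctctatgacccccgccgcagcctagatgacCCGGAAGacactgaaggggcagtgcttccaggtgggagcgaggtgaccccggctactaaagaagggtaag
Cox7b (chrX:106015450-106015749, plus strand): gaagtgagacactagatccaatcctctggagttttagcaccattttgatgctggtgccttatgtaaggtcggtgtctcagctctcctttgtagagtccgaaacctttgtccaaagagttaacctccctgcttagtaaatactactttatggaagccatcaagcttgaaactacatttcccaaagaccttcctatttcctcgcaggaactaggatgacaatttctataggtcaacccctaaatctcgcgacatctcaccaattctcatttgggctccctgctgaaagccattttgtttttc

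Values are log2 expression values, so 1 unit is a doubling, and a value of one cluster cannot be ranked as abundance against another cluster. On non-deprived arrays 2 and 3 high values were lower than elsewhere: the 75th percentile of the named genes was 6.43 and 6.55 there, compared with 7.01 to 7.15 on the other 4 arrays. Many results below are therefore also given without both. Among cell type markers, Slc17a7, the vesicular glutamate transporter of cortical excitatory neurons, was between 8.92 and 10.35 on the 6 arrays, and Rorb, a layer 4 marker, between 6.83 and 8.57. The median of the 7 measured excitatory markers was 7.70, 8.23 and 6.83 on non-deprived arrays 1 to 3 and 8.41, 8.14 and 7.77 on deprived arrays 1 to 3. Single markers differed from this median: 4 of the 7 were lowest and 1 highest on non-deprived array 2. All 7 were higher in the deprived arrays, with a median difference of 1.02 (0.58 without non-deprived arrays 2 and 3), and none passed the threshold used below. Of the 7 interneuron markers, Sst was between 10.08 and 11.59, Gad2 between 5.98 and 9.13, Gad1 between 5.68 and 7.78 and Pvalb between 3.76 and 7.94, while Vip was lowest, between 3.13 and 3.58. Their median was 6.79, 5.98 and 6.34 on the non-deprived and 6.28, 7.04 and 7.38 on the deprived arrays. The median of the 6 astrocyte markers was 5.70 on deprived array 1 and between 4.81 and 5.03 elsewhere. On that array 4 of them were highest and 2, Gfap and S100b, lowest. The medians of oligodendrocyte markers lay between 5.13 and 5.85, and those of microglial and endothelial markers between 4.07 and 4.97. Of these non-neuronal markers, Aif1 (microglial, by 0.78) and Pecam1 (endothelial, by 0.32) were higher in every deprived array. Gfap (by -0.24) and Mag (oligodendrocyte, by -0.19) were lower in each. Over all named genes 6.3% were separated upward and 4.03% downward in this way. Aif1 and Gfap went against their own lists. Of the microglial markers 1 was higher and 5 lower, and of the astrocyte markers 5 were higher and 1 lower. Endothelial markers were higher in 5 and lower in 1, and oligodendrocyte markers higher in 2 and lower in 3. The part of other cell types in the results was not tested.

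Comparing the hemispheres addresses how transcript levels in these neurons relate to the silencing of one eye. None of the 60 genes passed the threshold. Under limma with Benjamini-Hochberg adjustment over the 14859 named genes, 0 members and 0 of all genes (0%) had an adjusted p under 0.05. The smallest adjusted p among the members was 0.689, for Cox7b, and the other 59 were at 0.856 or above. At an unadjusted p under 0.05 there were 3 members, Cox7b, Ndufb7 and Cox6a1, lower in the deprived arrays in each case, and 0 that were higher. Over all named genes 1.41% were lower and 3.81% higher at that level. For 7 members the groups did not overlap: Cox7b, Ndufb7, Cox6a1 and Uqcrq were lower in every deprived array, and Sdha, Ndufa1 and Ndufaf2 were higher. The backgrounds over all named genes were 4.03% for separation downward and 6.3% upward, against 6.67% (4 of 60) and 5% (3 of 60) of the members, which are near them.

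By direction alone, 27 members had a higher and 33 a lower mean in the deprived arrays, with a median log2 difference of -0.04, while 56.3% of all named genes were higher, with a median of 0.05. The members were mostly well above the middle of the array: 53 of the 60 reached the 75th percentile of the gene means. Named genes above that percentile, a comparison added after the values were seen, were higher in 71.3% of 3716 cases with a median of 0.30, against 45% of the members. Without non-deprived arrays 2 and 3 these genes were higher in 1957 of 3716 cases (median 0.03) and the members in 32 of 60, so the contrast was no longer seen. After quantile normalization they were higher in 2118 cases (median 0.09), all named genes in 6683 of 14859 (median -0.04) and the members in 23 of 60. The median of the members turned to 0.01 without non-deprived arrays 2 and 3 and to 0.10 without non-deprived array 2 alone, and was -0.18 after quantile normalization and -0.13 after median centring. By complex, the medians were -0.02 for complex I (16 higher, 17 lower), 0.26 for complex II (2 and 2), -0.60 for complex III (2 and 3), -0.23 for complex IV (3 and 7) and 0.07 for complex V (4 and 4).

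**Figure D1:**
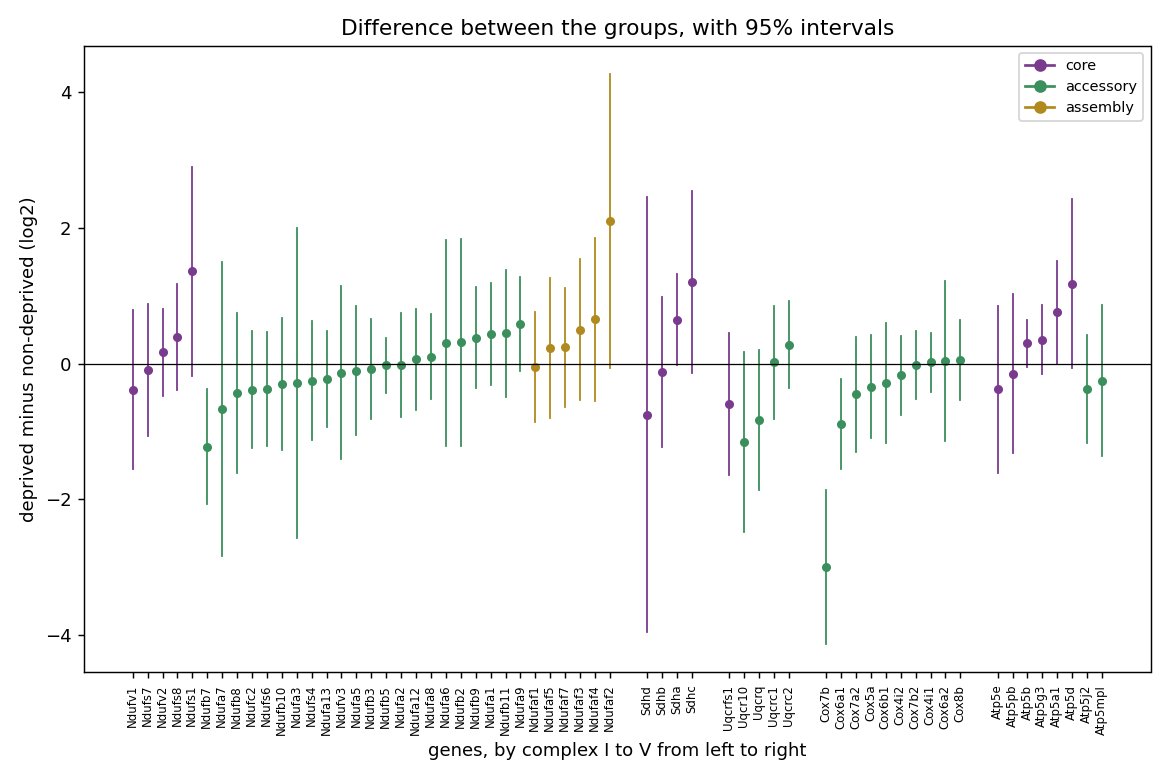
Difference between deprived and non-deprived arrays (vertical axis, log2) for each of the 60 genes, grouped by complex I to V from left to right; points are limma estimates over 3 arrays per group, lines are 95% intervals, and colours give core subunits, accessory subunits and assembly factors. The intervals of Cox7b, Ndufb7 and Cox6a1 lie below 0; the widest belongs to Sdhd.

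Among the core subunits of complex I, 5 were measured, and 3 were higher and 2 lower. Ndufs1, the largest iron-sulfur subunit of the NADH-oxidising arm, was at 9.22, 7.53 and 6.72 on non-deprived arrays 1 to 3 and at 9.04, 9.29 and 9.21 on deprived arrays 1 to 3. Its deprived values were within 0.25 of each other and close to non-deprived array 1, while non-deprived arrays 2 and 3 were lower. The log2 difference of 1.36 ± 0.64 (SE, n = 3 arrays per group; limma adjusted p = 0.856) became -0.04 without those arrays. The other 4 core genes differed by less, and their groups overlapped. Ndufs8, an iron-sulfur subunit of the peripheral arm, was at 8.37, 8.02 and 8.0 against 8.80, 8.33 and 8.43 (0.39 ± 0.33, and 0.15 without non-deprived arrays 2 and 3). Ndufv2, which holds a further iron-sulfur cluster, was at 9.39, 9.39 and 9.22 against 9.45, 9.82 and 9.22 (0.16 ± 0.27). Deprived array 2 alone set the latter difference, which was 0.002 without it. Ndufs7, which holds the last cluster before ubiquinone, was at 8.49, 9.46 and 8.23 against 8.50, 8.67 and 8.72 (-0.10 ± 0.40), with its highest value on non-deprived array 2. Ndufv1, which binds FMN and NADH, was at 9.18, 9.55 and 8.62 against 8.41, 8.15 and 9.64 (-0.39 ± 0.49), so its value on deprived array 3 was above all non-deprived ones.

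Of the 22 accessory subunits of complex I, 8 had a higher and 14 a lower deprived mean, with a median difference of -0.09 that was 0.20 without non-deprived arrays 2 and 3 (15 higher) and 0.10 without non-deprived array 2. Ndufb7, a subunit of the membrane arm, was at 9.56, 8.71 and 9.27 on the non-deprived and at 7.82, 7.87 and 8.17 on the deprived arrays. The groups did not overlap, and the highest deprived value lay under the lowest non-deprived one. Its difference was -1.23 ± 0.35 (SE; unadjusted p = 0.0114, limma adjusted p = 0.856), from -1.46 to -1.03 when 1 array was left out, and -1.61 without non-deprived arrays 2 and 3. The other non-overlapping gene was Ndufa1, a small X-linked membrane subunit, at 8.64, 8.37 and 8.56 against 9.32, 8.80 and 8.75, and it differed by 0.43 ± 0.31. It was 0.25 without deprived array 1, which held the highest value.

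Further accessory genes were named by their rank by p within complex I and direction. The unadjusted limma p was 0.08472 for Ndufa9, 0.3185 for Ndufc2 and 0.3227 for Ndufs6. Ndufa9, which sits beside the ubiquinone module, was at 10.48, 9.71 and 9.64 against 10.27, 10.71 and 10.61. Its difference of 0.59 ± 0.29 was 0.05 without non-deprived arrays 2 and 3. Ndufc2, in the membrane arm, was at 11.75, 10.51 and 10.89 against 10.29, 11.07 and 10.62, a difference of -0.39 ± 0.36 that shrank to -0.04 when non-deprived array 1 was left out and was -1.09 when arrays 2 and 3 of that group were. Ndufs6, a zinc-binding subunit of the peripheral arm, was at 10.25, 11.61 and 10.67 against 10.46, 10.33 and 10.61, so that a single array, the second of the non-deprived group, made its difference of -0.37 ± 0.35; without that array it was 0.01.

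That same array held the highest value of 8 of the 22 accessory genes of complex I, and of 633 of the 3716 named genes of high mean level. Ndufa3, a small membrane subunit, was at 11.06 there and between 7.55 and 8.85 on the other 5 arrays. Ndufa7, of the peripheral arm, was at 7.71 there, 4.02 on non-deprived array 1 and 6.48 on array 3, and between 4.72 and 5.88 on the deprived arrays. The difference of Ndufa7, -0.67 ± 0.90 in full, was 1.38 without non-deprived arrays 2 and 3. At the other extreme, Ndufb5 of the membrane arm was between 10.38 and 10.62 on all 6 arrays, with a difference of -0.03 ± 0.17 (95% interval -0.43 to 0.38). Ndufa12, of the peripheral arm, stayed between 7.42 and 7.80 (difference 0.06, interval -0.69 to 0.81), and Ndufa13, also known as GRIM-19, between 8.21 and 8.69 (-0.23, interval -0.94 to 0.48). Of the rest, Ndufb11, Ndufb9, Ndufb2, Ndufa6 and Ndufa8 were higher by 0.45, 0.38, 0.31, 0.30 and 0.10. The remaining members, Ndufb8, Ndufb10, Ndufs4, Ndufv3, Ndufa5, Ndufb3 and Ndufa2, differed by -0.43, -0.30, -0.25, -0.14, -0.10, -0.08 and -0.02. Of the 22 accessory genes, 21 had 95% intervals that include 0, all except Ndufb7. Mutations of NDUFS4, the human counterpart of Ndufs4, are a known cause of Leigh syndrome.

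Of the assembly factors of complex I, 6 were measured by these symbols, with 5 higher and 1 lower (median 0.37, 0.33 without non-deprived arrays 2 and 3, 0.13 without array 3 alone, and 0.15 with 4 higher after quantile normalization). Ndufaf2, a paralogue of Ndufa12 that acts late in assembly, was at 8.33, 7.63 and 4.94 on the non-deprived and at 9.74, 8.48 and 8.96 on the deprived arrays. The groups did not overlap, and non-deprived array 3 was far below the other 5. Its difference of 2.09 ± 0.90 (SE; limma adjusted p = 0.856) was 1.08 without that array and 0.73 without non-deprived arrays 2 and 3. Ndufaf4 and Ndufaf3, partners in building the ubiquinone module, differed by 0.65 ± 0.50 and 0.50 ± 0.43. Ndufaf5, which hydroxylates Ndufs7, and Ndufaf7, a methyltransferase, differed by 0.23 and 0.24. Ndufaf1, which acts on the membrane arm, differed by -0.05 ± 0.34.

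**Figure D2:**
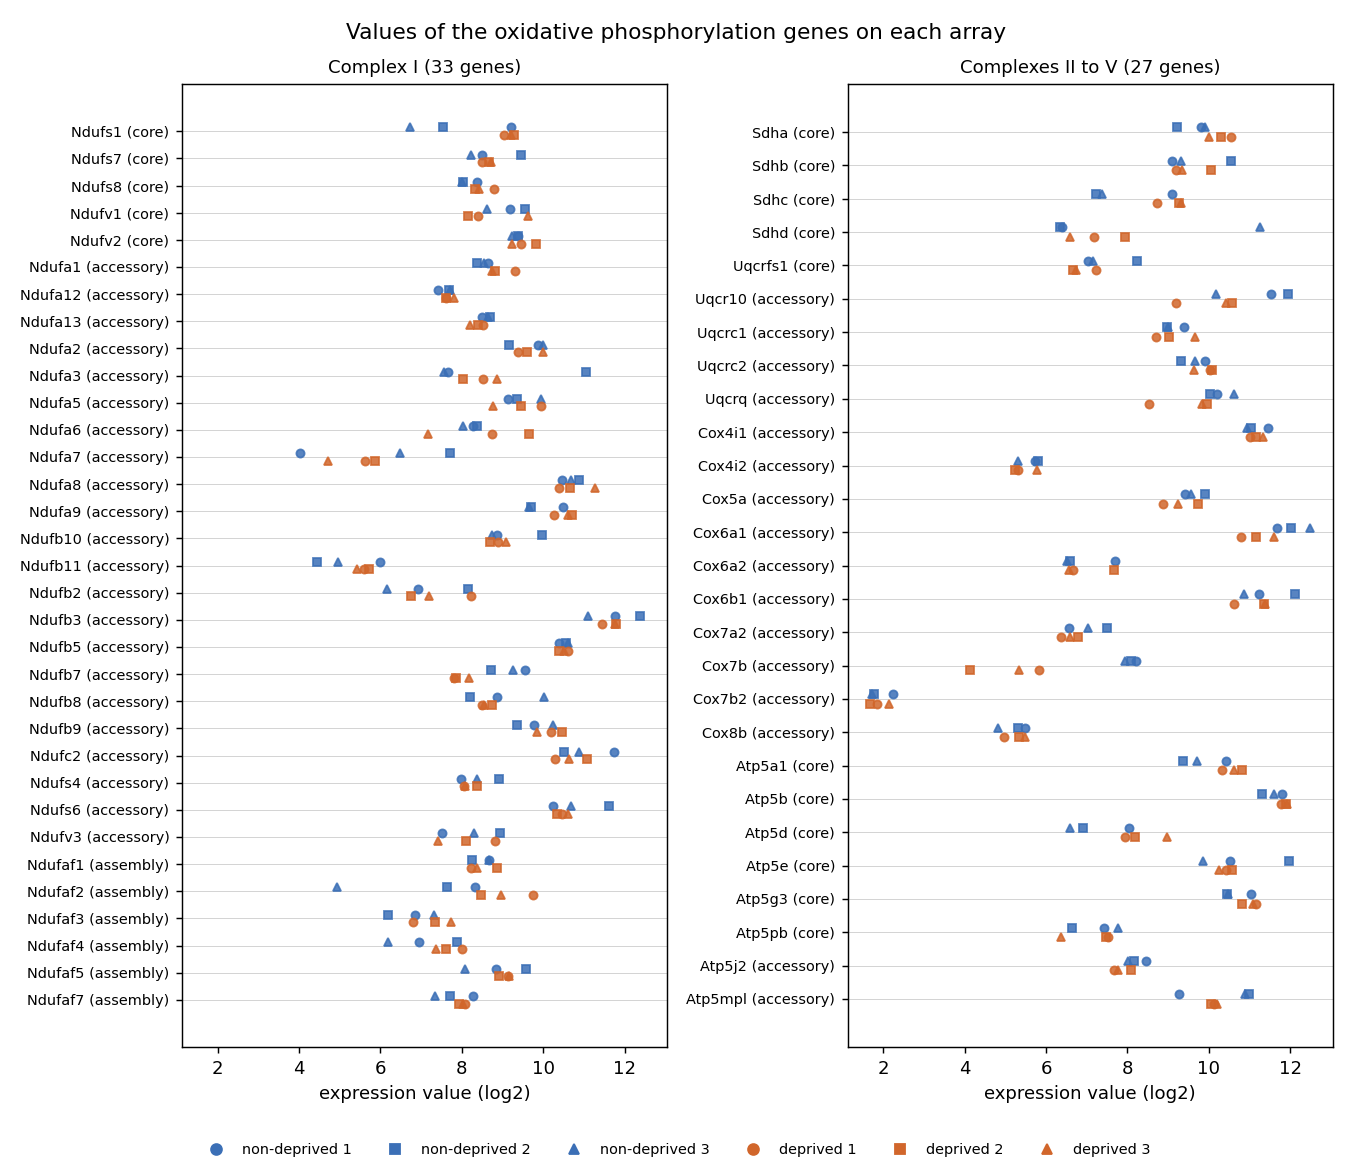
Log2 expression value (horizontal axis) of each of the 60 genes on each of the 6 arrays, with complex I on the left and complexes II to V on the right; colour gives the group and marker shape the replicate number. Cox7b shows a gap between 3 non-deprived values near 8 and 3 deprived values at or under 5.84, while for Sdhd a single non-deprived array lies far to the right.

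Complex II, succinate dehydrogenase, also serves the tricarboxylic acid cycle and is encoded wholly in the nucleus; its 4 subunits were all measured. Sdha, the flavoprotein that oxidises succinate, was at 9.80, 9.21 and 9.90 on the non-deprived arrays, and at 10.54, 10.31 and 10.01 on the deprived ones. The groups did not overlap, though the nearest values were only 0.11 apart. Its difference was 0.65 ± 0.28 (SE; unadjusted p = 0.0560, limma adjusted p = 0.856), from 0.43 to 0.78 when 1 array was left out and 0.49 without non-deprived arrays 2 and 3. Sdhb, the iron-sulfur subunit, was at 9.09, 10.54 and 9.33 against 9.18, 10.05 and 9.35, a difference of -0.12 ± 0.46, with array 2 highest in both groups.

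The membrane anchors of complex II went opposite ways, each through particular non-deprived arrays. Sdhc was at 9.08, 7.23 and 7.38 against 8.74, 9.26 and 9.31, a difference of 1.20 ± 0.56 that was 0.02 without non-deprived arrays 2 and 3. Sdhd was at 6.39, 6.34 and 11.25 against 7.19, 7.94 and 6.58, the only member whose values within a group spread over more than 4 log2 units. Its difference of -0.76 ± 1.34 turned to 0.87 without non-deprived array 3.

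Complex III was measured at 5 subunits, and its median difference stayed negative under each alternative run, from -0.86 to -0.22. Uqcr10, a small accessory subunit, was at 11.53, 11.94 and 10.18 on the non-deprived and at 9.19, 10.57 and 10.41 on the deprived arrays. The groups overlapped through non-deprived array 3; the difference was -1.16 ± 0.55 (SE; limma adjusted p = 0.856), and -0.73 without deprived array 1. Uqcrq, another small subunit, was at 10.21, 10.02 and 10.61 against 8.53, 9.96 and 9.84. Its groups did not overlap by a margin of 0.06, and its difference of -0.83 ± 0.43 was -0.38 without deprived array 1, in which both genes were lowest.

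Uqcrfs1, the Rieske iron-sulfur protein that accepts electrons from ubiquinol, was at 7.03, 8.23 and 7.16 against 7.23, 6.67 and 6.73, a difference of -0.60 ± 0.44 that was -0.22 without non-deprived array 2. The larger scaffold subunits, called core proteins of complex III by history although they hold no cofactor, were nearer to 0. Uqcrc2 was at 9.91, 9.33 and 9.67 against 10.02, 10.08 and 9.64 (difference 0.28 ± 0.27), and Uqcrc1 differed by 0.02 ± 0.35. Cyc1, the cytochrome c1 of the same complex, which the symbol rule does not take, differed by 0.21 ± 0.35.

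Complex IV is built round 3 catalytic subunits of mitochondrial DNA, so all 10 measured genes encode accessory subunits. Of these, 7 were lower and 3 higher in the deprived arrays; the median of -0.23 was between -0.37 and -0.07 when 1 array was left out, and -0.29 without non-deprived arrays 2 and 3. After median centring of the arrays all 10 were lower, and 8 after quantile normalization. Centring moves the difference of each gene by the same amount. The 3 that turned, Cox4i1, Cox6a2 and Cox8b, had differed by 0.02, 0.03 and 0.05. Over all 14859 named genes, those higher went from 8368 to 6615 after centring and to 6683 after quantile normalization. Deprived array 1 lay below the gene's own mean over the 6 arrays in each of the 10 genes (0 above), and without it the median was -0.07. As given above, the median of the astrocyte markers, though not each marker, was highest on that array; their part in this was not tested.

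Cox7b, a small X-linked membrane subunit of complex IV, had the widest gap of the 60 genes. It was at 8.22, 8.10 and 7.95 on the non-deprived and at 5.84, 4.13 and 5.33 on the deprived arrays, so that the groups lay 2.11 apart at their nearest. The log2 difference was -2.99 ± 0.47 (SE, n = 3 arrays per group; 95% interval -4.12 to -1.86; unadjusted p = 0.000505, limma adjusted p = 0.689). It was -3.36 to -2.51 when 1 array was left out, -3.12 without non-deprived arrays 2 and 3 and -3.13 after quantile normalization. Deprived array 2, not deprived array 1, held the lowest value. Among genes lower in the deprived arrays it ranked 1 of 6488 by p.

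Cox6a1, the form of subunit VIa found in most tissues, was at 11.67, 12.03 and 12.50 on the non-deprived and at 10.78, 11.15 and 11.59 on the deprived arrays. The groups did not overlap, with 0.08 between them. Its difference was -0.89 ± 0.27 (SE; unadjusted p = 0.0155, limma adjusted p = 0.856), and -0.49 without non-deprived arrays 2 and 3. Cox7a2, again the form of most tissues, was at 6.57, 7.49 and 7.03 against 6.36, 6.77 and 6.59, a difference of -0.46 ± 0.35 that was 0.00 without non-deprived arrays 2 and 3. Cox5a, on the matrix side, differed by -0.34 ± 0.32 and Cox6b1, which helps to hold the dimer together, by -0.29 ± 0.37. Cox4i1, the main form of the largest nuclear-encoded subunit, had the smallest standard error of the 10, at 11.46, 11.04 and 10.94 against 11.00, 11.17 and 11.33, differing by 0.02 (95% interval -0.42 to 0.45).

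Complex IV has alternative forms of several subunits that are known from other tissues, and 4 of them were measured. Cox7b2, known from testis, was at 2.24, 1.78 and 1.73 on the non-deprived and at 1.86, 1.67 and 2.14 on the deprived arrays, in the lowest 1% of named genes. Cox8b, a heart and skeletal muscle form, was at 5.49, 5.32 and 4.82 against 4.96, 5.34 and 5.49. Cox4i2, known from lung and from responses to low oxygen, was at 5.73, 5.79 and 5.32 against 5.30, 5.24 and 5.77. The groups of all 3 overlapped. Neither those values nor those of Cox6a2 come with a detection call, so whether they lie above background is not known. Cox6a2, another heart and skeletal muscle form, was at 7.70, 6.59 and 6.51 on the non-deprived and at 6.66, 7.67 and 6.58 on the deprived arrays. A single array of each group was about 1 unit above the other 2. The differences of Cox7b2, Cox8b, Cox4i2 and Cox6a2 were -0.03, 0.05, -0.17 and 0.03, with standard errors of 0.21 to 0.49, whereas Cox7b, the paralogue of Cox7b2, differed by nearly 3 units.

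In complex V, the alpha, beta and delta subunits of the F1 part had higher means in the deprived arrays, and each had its 2 lowest values on non-deprived arrays 2 and 3. Atp5a1, the alpha subunit, was at 10.42, 9.36 and 9.72 against 10.32, 10.81 and 10.63, which gives 0.75 ± 0.32 (SE; unadjusted p = 0.0508, limma adjusted p = 0.856). Without those 2 arrays it was 0.17. Atp5b, the catalytic beta subunit, was at 11.79, 11.31 and 11.61 against 11.77, 11.91 and 11.92, a difference of 0.30 ± 0.14 that became 0.07. Atp5d, the delta subunit of the central stalk, was at 8.05, 6.92 and 6.59 against 7.93, 8.18 and 8.98, a difference of 1.18 ± 0.52 that became 0.31. The deprived values of Atp5a1, Atp5b and Atp5d straddled that of non-deprived array 1.

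Atp5g3, one of the genes for the rotating c ring, was at 11.03, 10.46 and 10.48 against 11.15, 10.80 and 11.08 (0.35 ± 0.21, and -0.02 without non-deprived arrays 2 and 3). Atp5e, the small epsilon subunit of the central stalk, was at 10.52, 11.98 and 9.85 against 10.41, 10.57 and 10.24, a difference of -0.38 ± 0.51 set by non-deprived array 2 (0.22 without it). Atp5pb, the b subunit of the peripheral stalk, was at 7.42, 6.63 and 7.77 against 7.53, 7.47 and 6.36 (-0.15 ± 0.49), lowest on deprived array 3. Of the small membrane subunits, Atp5j2 was at 8.46, 8.16 and 8.03 against 7.66, 8.09 and 7.76 (-0.38 ± 0.33), and Atp5mpl at 9.27, 10.98 and 10.90 against 10.13, 10.06 and 10.20. The deprived values of Atp5mpl lay between those of non-deprived array 1 and the other two, so that its difference of -0.25 ± 0.47 turned to 0.86 without non-deprived arrays 2 and 3.

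**Figure D3:**
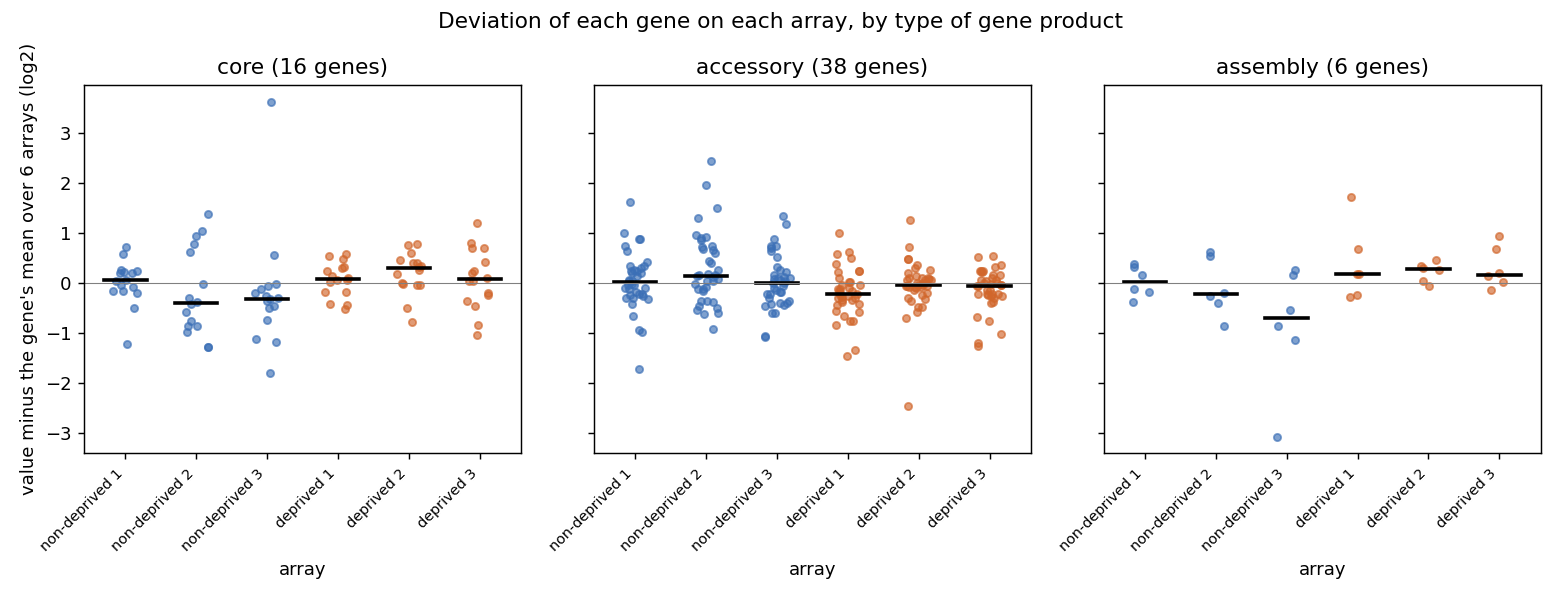
Value of each gene on each array minus that gene's mean over the 6 arrays (vertical axis, log2), for 16 core subunits, 38 accessory subunits and 6 assembly factors; points are genes, black bars are medians, blue is non-deprived and orange deprived. The medians of core and assembly genes are low on non-deprived arrays 2 and 3, while those of accessory genes are not. Single genes differ: on non-deprived array 2, 6 of the 16 core genes are lowest and 4 highest.

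Sorted by type over all complexes, 9 of 16 core subunits had higher means in the deprived arrays (median 0.23), as did 13 of 38 accessory subunits (median -0.15) and 5 of 6 assembly factors (median 0.37). The median deviation of the core genes from their own means was -0.39 on non-deprived array 2 and -0.31 on array 3, against 0.06 on non-deprived array 1 and 0.08 to 0.30 on the deprived arrays. Core genes were not alike in this: on non-deprived array 2, 6 of the 16 were lowest and 4 highest. Of the 5 core genes in complex I, 0 were lowest and 1 highest there. Accessory genes had medians of 0.15 and 0.01 on non-deprived arrays 2 and 3 and were lowest on deprived array 1, at -0.21. The medians of core and accessory genes lay furthest apart on non-deprived array 2. Without non-deprived arrays 2 and 3, the median differences were 0.09 for core and -0.10 for accessory genes. With array 2 alone left out the accessory median was -0.0091, with 18 of 38 higher, and without array 3 alone that of the assembly factors was 0.13. Whether the types differ from each other was not tested, since the members share arrays and were chosen with results known.

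Most of the spread lay in the non-deprived group. Of the 60 genes, 43 had a larger SD over the non-deprived than over the deprived arrays, with median SDs of 0.47 and 0.30; among named genes above the 75th percentile of mean level it was 2664 of 3716, with medians of 0.66 and 0.39. Non-deprived array 2 held the highest value of 19 members and the lowest of 13, and non-deprived array 3 the lowest of 17. Among the same 3716 genes, non-deprived array 2 held the highest value of 633 and the lowest of 1394. Non-deprived array 3 held the lowest of 1050 of them. Leaving out arrays 2 and 3 changed the sign of 21 of the 60 differences.

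**Figure D4:**
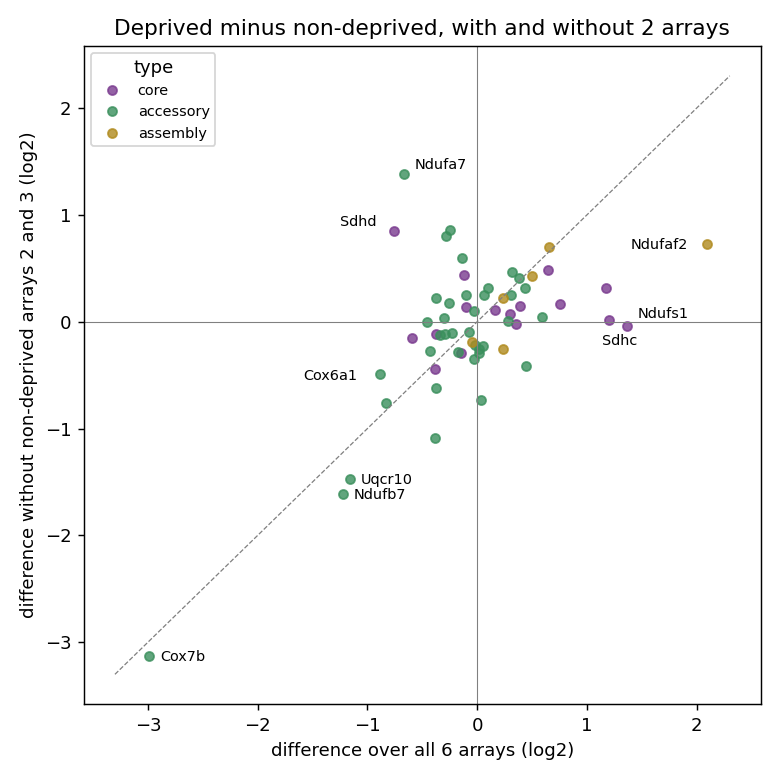
Log2 difference between deprived and non-deprived arrays over all 6 arrays (horizontal axis) against the same without non-deprived arrays 2 and 3 (vertical axis) for the 60 genes, coloured by type; the dashed line marks equal values. Cox7b, Ndufb7 and Uqcr10 stay near the line or below it, while Ndufs1 and Sdhc move to about 0.

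Other genes of the pathway were taken from lists: 68 of 83 were measured, of which 52 had a higher and 16 a lower deprived mean, with a median difference of 0.39 that was 0.13 without non-deprived arrays 2 and 3 (37 higher). No gene among them passed the threshold under limma; 4 of 68 had an unadjusted p under 0.05 and 12 of 68 had groups that did not overlap, all of these higher. The shares over all named genes were 3.81% and 6.3%, and upward separation was found in 356 of the 3716 genes of high mean level. These genes were higher together with the excitatory markers described above, and the part of the latter was not tested. Assembly factors of complex I outside the Nduf symbols were higher in 8 of 8 cases (median 0.58), but in 4 of 8 with a median of -0.20 without those arrays. Nubpl, which delivers iron-sulfur clusters to complex I, was at 4.36, 2.49 and 2.84 on the non-deprived and at 5.96, 6.92 and 6.48 on the deprived arrays. Its groups did not overlap, with 1.60 between them, a difference of 3.22 ± 0.51 (SE; unadjusted p = 0.000510, limma adjusted p = 0.689), or 2.10 without non-deprived arrays 2 and 3. Assembly genes of complex III were higher in 5 of 6 (median 0.60, and 0.36 without the same arrays), among them Bcs1l, which inserts the Rieske protein, by 1.13 ± 0.49, or 0.66 without array 2 of the non-deprived group; Uqcc3 differed by -0.35, or 0.26 without deprived array 2. Those of complex IV were higher in 9 of 12 (median 0.41, 0.24 with 7 higher without non-deprived arrays 2 and 3, and 0.17 without deprived array 3), with Lrpprc, which stabilises mitochondrial transcripts, at 0.85 ± 0.48 (0.46 without the 2 non-deprived arrays) and Coa6 at -0.51 ± 0.27 (-0.25). The 2 measured complex II factors, Sdhaf2 and Sdhaf4, differed by -0.11 and -0.06.

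For ATP synthase, 2 assembly or inhibitor genes were higher and 2 lower, and the median of 0.00 was -0.56 without non-deprived arrays 2 and 3. Tmem70 differed by 0.64 (0.39 without them) and Atpaf1 by -1.45 ± 0.80 (-1.40, and -0.82 without deprived array 3). Electron carriers were higher in 6 of 7 (median 0.21, 0.25 with 4 higher without the 2 arrays, and 0.07 without non-deprived array 3 alone), with Gpd2, the mitochondrial glycerol phosphate dehydrogenase, at 0.88 (0.41 without the 2 arrays) and Cyct, the testis cytochrome c, at -0.02. The list of nucleotide and phosphate carriers, which also holds the Vdac channels and Ckmt1, was lower in 4 of 6 (median -0.16, and -0.0172 without non-deprived array 1). Its carriers in the strict sense, Slc25a3 and Slc25a4, differed by -0.06 and 0.195. Vdac3, an outer membrane channel, differed by -1.47 ± 0.90 (-0.73 without deprived array 1), and Ckmt1, mitochondrial creatine kinase, by 0.88, or -0.24 without non-deprived arrays 2 and 3.

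Regulators of mitochondrial biogenesis were higher in 7 of 9 (median 0.54, 0.22 without non-deprived arrays 2 and 3, and 0.19 without deprived array 3). Tfb1m, a methyltransferase of mitochondrial ribosomal RNA, was at 5.52, 4.49 and 4.32 against 6.26, 8.64 and 6.99, a difference of 2.53 ± 0.65 without overlap, or 1.78 without those 2 arrays (limma adjusted p = 0.856). Gabpa, the DNA-binding subunit of GABP, was at 7.02, 6.02 and 6.84 against 8.14, 7.71 and 7.28, also without overlap, a difference of 1.09 ± 0.42, or 0.69 without them. Nrf1 differed by -0.60 ± 0.62 and Ppargc1a, the coactivator PGC-1alpha, by 0.15 ± 0.24. The list for the tricarboxylic acid cycle, which feeds complexes I and II, also took in Pdha1, Pdhb and Dlat of the pyruvate dehydrogenase complex, which are not cycle enzymes. Its genes were higher in 13 of 14 (median 0.63, and 0.21 with 8 higher without non-deprived arrays 2 and 3). Dlst, of the 2-oxoglutarate dehydrogenase complex, was at 8.50, 5.60 and 7.59 against 9.35, 9.18 and 9.14, a difference of 1.99 ± 0.73 that was 0.72 without those arrays, and Sucla2 differed by -0.04 (0.37). Pdha1, Pdhb and Dlat differed by 0.69, 0.72 and 0.56. Of the other cycle genes, Cs, Idh3g, Ogdh and Suclg1 differed by 1.22, 1.01, 1.25 and 0.91. Mdh2, Idh3b, Fh1, Idh3a and Dld differed by 0.25, 0.24, 0.11, 0.07 and 0.03. No median was taken without the pyruvate dehydrogenase genes. The median level of the whole list was 9.26, 7.87 and 8.30 on the non-deprived and 9.15 to 9.30 on the deprived arrays. It too was thus low on non-deprived arrays 2 and 3.

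**Figure D5:**
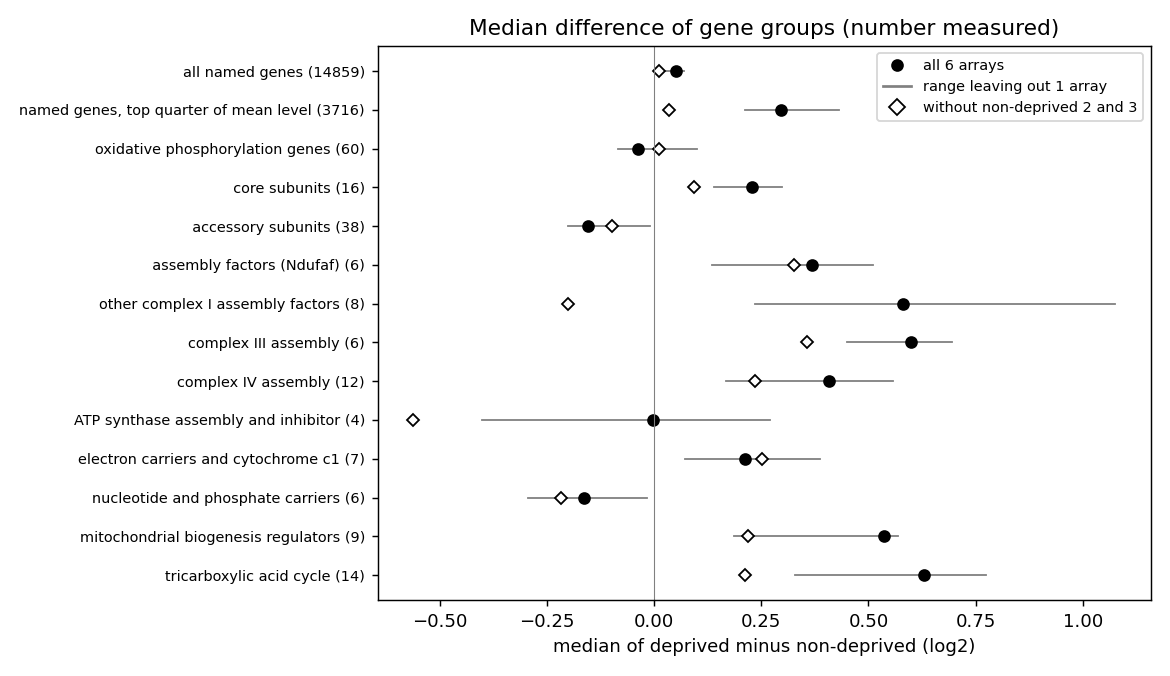
Median log2 difference between deprived and non-deprived arrays (horizontal axis) for gene groups, with the number measured in brackets; filled points use all 6 arrays, grey lines span the values when 1 array is left out, and open diamonds leave out non-deprived arrays 2 and 3. The median of the oxidative phosphorylation genes lies at -0.04. That of the tricarboxylic acid cycle list, which also holds pyruvate dehydrogenase genes, lies at 0.63, or 0.21 without the 2 arrays.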

How the data were processed

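The authors deposited log2 expression values of 23331 transcript clusters on 6 exon arrays; the log2 scale was read from the values (0.584 to 13.6). How the authors corrected background, normalized and summarized probes is not given in the sources used. The submitters' processing notes name the build mm9; from 0.3 to 1 ng of RNA was amplified in 2 rounds, per the labels' protocols. No detection measure was used, and 3 arrays per group limit the precision.

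Clusters with 1 symbol in the platform annotation (14995) gave 14859 genes, taking the highest-mean cluster of each; 1019 clusters had several symbols and 7317 none. Groups were compared over all 6 arrays with limma 3.58.1 in R 4.3.3 (lmFit, eBayes with a variance trend), with the group as the sole term, two-sided, with Benjamini-Hochberg adjustment over the 14859 genes at 0.05. Differences are deprived minus non-deprived. The fit was tested on simulated data for this comparison. Of genes changed there by 1, 2, 3 and 4 log2 units, 21.6%, 60.8%, 73.6% and 82.8% were called, with 5.4 false calls per run. Whether these figures hold for the measured arrays, with the lower high values of non-deprived arrays 2 and 3, was not tested.

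The members and lists were chosen with earlier results of these data known. Values by array are given for the members that had the lowest unadjusted p among higher and among lower genes (3 each for complexes I, IV and V, 1 each for II and III), for core subunits and isoforms, and for members with a range over 4 log2 units within a group. Of other pathway genes, the one with the smallest p per list and direction is named. Gabpa, Ppargc1a, Cyc1, Sdhaf4, Slc25a3, Slc25a4 and the further members described by array were chosen after their values were seen. The measured genes of the tricarboxylic acid cycle list are all given. Complexes and types were assigned from general knowledge. The labels number the non-deprived samples 1 to 3 with the letter l and the deprived ones 1 to 3 with the letter r. They do not say what the letters mean or whether a number marks 1 animal, and letter and group cannot be told apart. The deviations of same-numbered arrays from their group means correlated at -0.05, -0.02 and -0.00334, so the numbers were not taken to pair the arrays. Alternatives were quantile normalization, a block for the replicate number, centring of arrays on the median, filters on mean level, cluster means, no variance trend, and leaving out arrays.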

Additional observations from a re-analysis of the deposited data

How the results depend on the processing

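No member and none of the 14859 genes passed the threshold under any alternative run (14 settings, the replicate block included), so no call depended on the processing. The replicate number as a block gave 0 calls and 4 members at an unadjusted p under 0.05. That count, 3 as reported, was 5 without the variance trend, 5 with non-deprived arrays 2 and 3 both left out, and 3 to 14 when 1 array was left out, the most without non-deprived array 1. The median difference of the members was -0.18 after quantile normalization and -0.0837 to 0.10 when 1 array was left out. For complex I it was 0.15 without non-deprived arrays 2 and 3 and -0.0093 to 0.19 when 1 array was left out, for complex II 0.13 to 0.83, and for complex V 0.016 to 0.25, and -0.024 after median centring. The medians of complexes III and IV stayed negative. Of the 60 members, 26 kept their sign under all settings; these include Cox7b, Ndufb7, Cox6a1, Uqcr10, Uqcrq, Sdha, Ndufa1 and Ndufaf2. In all, 84 of 835 member differences turned sign; the cause was not tested. After quantile normalization these were Ndufa12 -0.22, Ndufaf7 -0.051, Uqcrc1 -0.11, Cox6a2 -0.32, Cox7b2 0.055 and Cox8b -0.04. After median centring they were Ndufa12 -0.038, Uqcrc1 -0.081, Cox4i1 -0.08, Cox6a2 -0.063 and Cox8b -0.043. Without non-deprived arrays 2 and 3 they were Ndufs1 -0.037, Ndufs7 0.14, Ndufv3 0.59, Ndufs4 0.18, Ndufs6 0.22, Ndufa3 0.80, Ndufa5 0.25, Ndufa7 1.38, Ndufb5 0.10, Ndufb10 0.032, Ndufb11 -0.41, Ndufaf7 -0.26, Sdhb 0.44, Sdhd 0.85, Uqcrc1 -0.25, Cox4i1 -0.29, Cox6a2 -0.73, Cox7a2 0.0013, Cox8b -0.22, Atp5g3 -0.021 and Atp5mpl 0.86. Leaving out 1 array turned the sign of 28 members, whose differences then ranged as follows: Ndufs7 -0.35 to 0.27, Ndufv3 -0.50 to 0.21, Ndufs6 -0.67 to 0.011, Ndufa2 -0.28 to 0.14, Ndufa3 -0.89 to 0.86, Ndufa5 -0.38 to 0.21, Ndufa6 -0.26 to 0.98, Ndufa7 -1.69 to 0.15, Ndufa8 -0.15 to 0.29, Ndufa12 -0.034 to 0.12, Ndufb2 -0.14 to 0.85, Ndufb3 -0.40 to 0.23, Ndufb5 -0.0903 to 0.035, Ndufb8 -0.84 to 0.058, Ndufb10 -0.53 to 0.086, Ndufaf1 -0.24 to 0.0803, Ndufaf5 -0.14 to 0.60, Sdhb -0.41 to 0.32, Sdhd -1.58 to 0.87, Uqcrc1 -0.25 to 0.23, Cox4i1 -0.086 to 0.17, Cox6a2 -0.32 to 0.42, Cox6b1 -0.56 to 0.069, Cox7b2 -0.15 to 0.14, Cox8b -0.14 to 0.20, Atp5e -0.84 to 0.22, Atp5pb -0.47 to 0.23, Atp5mpl -0.81 to 0.046. No detection limit is known for low values such as those of Cox7b2.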
